A study of Saccharomyces cerevisiae BY4741 with 8 samples.

Results

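The old yellow enzymes and the aryl-alcohol dehydrogenases are NADPH-dependent reductases of *Saccharomyces cerevisiae*, and 10 gene identifiers of these families were followed. They are the old yellow enzyme genes *OYE2* (YHR179W) and *OYE3* (YPL171C), the *AAD* genes *AAD3* (YCR107W), *AAD4* (YDL243C), *AAD6* (YFL056C), *AAD10* (YJR155W), *AAD14* (YNL331C), *AAD15* (YOL165C) and *AAD16* (YFL057C), and YPL088W. The genes were chosen by identifier from the tables of each library, of 5782 genes in all. Values were found for 8 of the 10, and *AAD6* and *AAD16* were not analysed here. The R64 annotation holds *AAD6* as 1 pseudogene with YFL057C among its names.

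The RNA came from the MATa laboratory strain BY4741, which the study gives as *his3*Δ1 *leu2*Δ *met5*Δ *ura3*Δ, and from BY4741(yrr1Δ), which lacks *YRR1*. Both strains carried the same auxotrophic mutations, and *YRR1* was replaced by a KanMX cassette. Yrr1p is a zinc cluster transcription factor of multidrug resistance genes. Each strain was grown in synthetic defined medium (SD) and in SD with 5 mM vanillin, an aromatic aldehyde of lignocellulose hydrolysates, from an OD600 of 0.2 to a harvest at 1.6 to 2.0. The 4 groups held 2 biological replicates each, and 8 poly(A) libraries were sequenced on an Illumina HiSeq instrument.

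Old yellow enzymes carry a flavin mononucleotide that takes hydride from NADPH and passes it to the carbon-carbon double bond of unsaturated aldehydes and ketones. Oye2p and Oye3p can pair with themselves or with each other. The *AAD* genes were named for their likeness to the aryl-alcohol dehydrogenase of the lignin-degrading fungus *Phanerochaete chrysosporium*, which in that fungus reduces aromatic aldehydes, and the proteins belong to the aldo-keto reductases. Most yeast *AAD* genes lie near chromosome ends. YPL088W encodes a putative aryl-alcohol dehydrogenase and is known as a gene that Yrr1p and its paralog Yrm1p can activate.

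The sequences before the start codons are shown first, because *OYE2*, *OYE3* and YPL088W were the members that changed with vanillin in BY4741 and their upstream letters differ. The 300 bases before each start codon were read from the R64 reference, on the coding strand, at chrVIII:462202-462501 (plus strand) for *OYE2*, at chrXVI:227372-227671 (minus strand) for *OYE3* and at chrXVI:381665-381964 (plus strand) for YPL088W. Capitals mark the motif matches.
OYE2: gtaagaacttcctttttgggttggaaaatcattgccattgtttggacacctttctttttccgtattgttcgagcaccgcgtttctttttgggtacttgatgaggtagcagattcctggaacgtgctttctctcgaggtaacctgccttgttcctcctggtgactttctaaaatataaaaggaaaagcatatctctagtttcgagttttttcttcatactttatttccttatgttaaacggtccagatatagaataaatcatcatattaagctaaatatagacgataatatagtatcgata
OYE3: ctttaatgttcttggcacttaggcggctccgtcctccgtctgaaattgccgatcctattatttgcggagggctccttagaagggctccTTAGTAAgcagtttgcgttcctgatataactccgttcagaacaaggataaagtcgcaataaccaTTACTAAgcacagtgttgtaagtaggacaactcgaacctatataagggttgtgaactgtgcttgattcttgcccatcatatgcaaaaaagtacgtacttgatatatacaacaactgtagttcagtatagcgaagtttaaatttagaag
YPL088W: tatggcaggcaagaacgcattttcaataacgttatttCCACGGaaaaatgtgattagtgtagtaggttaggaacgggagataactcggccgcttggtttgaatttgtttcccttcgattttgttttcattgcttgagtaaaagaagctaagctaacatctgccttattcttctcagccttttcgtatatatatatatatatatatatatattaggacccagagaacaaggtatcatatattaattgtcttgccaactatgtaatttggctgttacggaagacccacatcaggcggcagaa

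The letters searched, on both strands, were TTACTAA and TGACTAA, known as binding letters of the oxidative stress factor Yap1p, CCGCGG and CCGTGG, known as binding letters of the drug resistance factors Pdr1p and Pdr3p, and CCCCT, the stress response element of Msn2p and Msn4p. No 2 of these motifs overlapped in the members. *OYE3* held TTACTAA on either strand, at 212 to 206 and at 148 to 142 bases before the start codon. That motif was present at least 1 time in 7.82% of the 6001 upstream windows of the genome, and windows with 2 matches were not counted. YPL088W held CCGTGG, read on the coding strand as CCACGG, at 263 to 258 bases before its start codon, a motif in 3.70% of the windows. *OYE2* held none of the 5 motifs. *AAD15* held TGACTAA, in 3.68% of the windows, and *AAD3*, *AAD4*, *AAD10* and *AAD14* held none. CCGCGG was in 1.37% and CCCCT in 22.2% of the windows, and neither was in a window of the members. The annotated starts of the *AAD* genes are not at the same place of their shared sequence. Bases 661 to 720 of *AAD3* align with bases 406 to 465 of *AAD10*, 532 to 591 of *AAD4* and 1 to 60 of *AAD15*. The upstream windows of *AAD10*, *AAD4* and *AAD15* can thus hold letters like the coding letters of relatives. Whether these windows are promoters was not tested. A match is a description of letters, and binding was not measured. No separate motif was searched for Yrr1p, and whether letters of the upstream windows, the CCGTGG match included, are bound by Yrr1p was not tested.

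How the counts of a member can be told from those of its relatives depends on the sequences of the genes themselves. *OYE2* (chrVIII:462502-463704) and *OYE3* (chrXVI:226169-227371) are both 1203 bases long and were identical at 73.5% of the aligned bases, with no run of identical bases over 14. None of the 1154 windows of 50 bases in either gene occurred elsewhere in the genome. The 60 bases in which they were most alike, bases 550 to 609 of both genes, still differed at 8 positions, in capitals for *OYE3*.
OYE2: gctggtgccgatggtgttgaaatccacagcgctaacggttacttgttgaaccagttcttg
OYE3: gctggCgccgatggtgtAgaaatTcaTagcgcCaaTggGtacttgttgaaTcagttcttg

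The *AAD* genes were much closer to each other. *AAD3* (chrIII:313890-314981) and *AAD15* (chrXV:1647-2078) were identical at 97.7% of the 432 bases that make up *AAD15*, and the pairs within the *AAD* family ran from 76.6% to 97.7%. The first 60 bases of *AAD15* match bases 661 to 720 of *AAD3* and a stretch of *AAD6* without a difference, whereas *AAD14* differed at 3, *AAD4* at 6 and *AAD10* at 7 positions. Capitals mark bases that differ from *AAD3*.
AAD3, AAD15 and AAD6: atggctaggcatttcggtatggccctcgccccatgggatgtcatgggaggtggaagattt
AAD14: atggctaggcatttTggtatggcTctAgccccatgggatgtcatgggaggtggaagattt
AAD4: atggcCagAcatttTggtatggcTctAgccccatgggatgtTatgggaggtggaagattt
AAD10: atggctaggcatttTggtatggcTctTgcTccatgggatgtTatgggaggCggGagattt

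Of the windows of 50 bases, 35.2% in *AAD15*, 25.8% in *AAD3*, 21.4% in *AAD4*, 8.23% in *AAD14* and 2.44% in *AAD10* occurred elsewhere in the genome. With windows of 100 bases these shares were 0.901%, 7.55%, 3.14%, 0% and 0%. *AAD3* shared 122 of its 1043 windows of 50 bases with *AAD6*, 120 with *AAD15* and 76 with *AAD4*. A read from a shared stretch cannot be assigned to 1 gene by its letters alone. YPL088W (chrXVI:381965-382993), the most distant of the dehydrogenases, shared no window of 50 bases with another place in the genome.

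**Figure D1:**
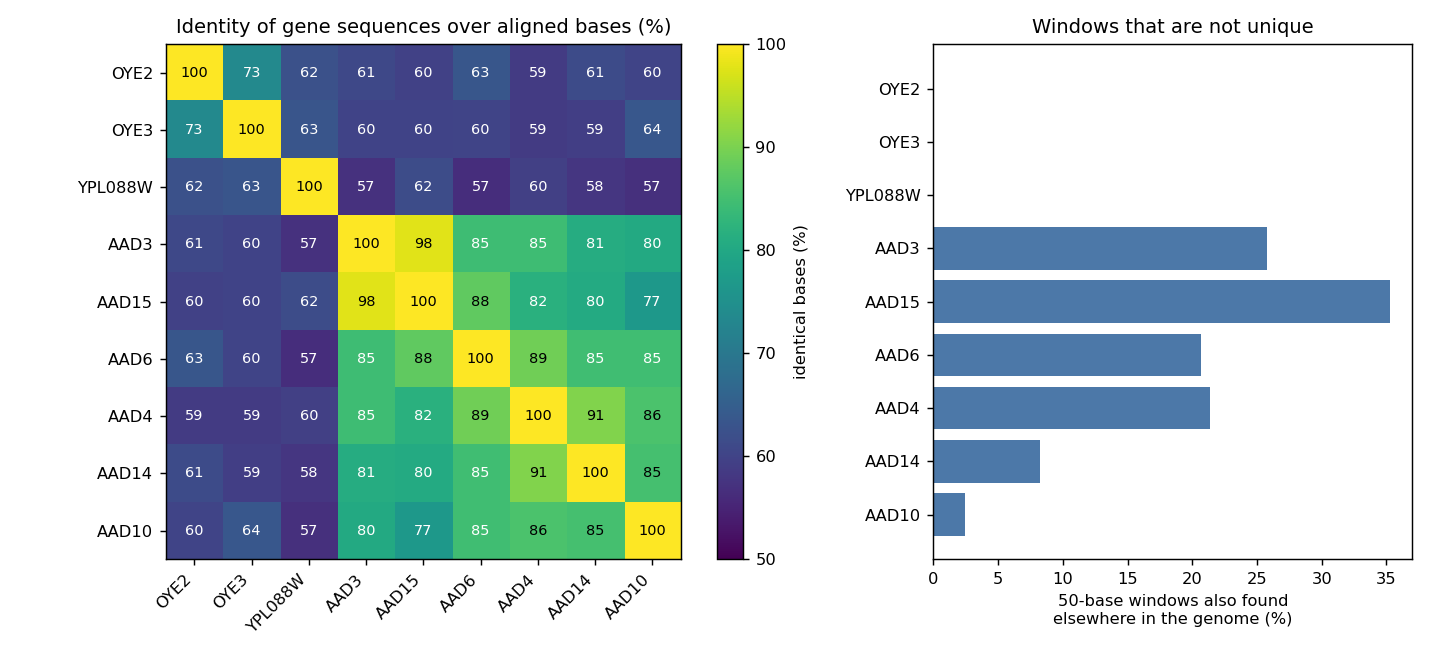
Identity of the gene sequences over aligned bases in percent (left, R64 reference) and the share of 50-base windows of each gene that also occur elsewhere in the genome (right, bars from 0). *OYE2* and *OYE3* share 73.5% of aligned bases and no 50-base window, while *AAD3* and *AAD15* share 97.7% of aligned bases and 25.8% and 35.2% of their windows are not unique.

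The members also differed in whether their deposited counts were whole. An expected count is the authors' estimate of the reads from a gene and need not be whole when reads fit several genes. The counts of *OYE2*, *OYE3*, *AAD4*, *AAD10* and YPL088W were whole numbers in all 8 libraries. Those of *AAD3* were not whole in 7 libraries, those of *AAD14* in 2 and those of *AAD15* in 7, the remaining count of *AAD15* being 0. Over all genes, 291 of 5782 (5.03%) had a count that was not whole in at least 1 library. A whole count does not show that the reads fit 1 gene only. In *AAD4*, 21.4% of the windows of 50 bases occurred elsewhere in the genome. It shared 115 of them with *AAD6*, which had no values.

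*AAD15*, a gene that covers only the last part of the *AAD3* sequence, had few counts everywhere. They were 2.21 and 2.95 in BY4741 in SD, 3.28 and 0 in BY4741(yrr1Δ) in SD, 5.42 and 4.72 in BY4741 with vanillin, and 9.35 and 2.22 in BY4741(yrr1Δ) with vanillin. A count of 0 allows up to 3 counts, by counting error only, so the 0 does not show that the RNA was absent. *AAD15* did not pass the filter on low counts, so its groups were not compared in the main fit. The other 7 members with values were tested.

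Library totals ran from 2195324 to 2453837 expected counts. *YRR1* had 73 to 100 counts in the 4 libraries of BY4741 and 0 to 2 in the 4 of BY4741(yrr1Δ). *STE2*, a gene of MATa cells, had 986 to 1706 counts and the mating type alpha genes *STE3*, *MF(ALPHA)1* and *MF(ALPHA)2* at most 35. Of the genes named as mutated, *LEU2* and *URA3* had 0 to 2 counts and *HIS3* had 51 to 181, *his3*Δ1 being an allele that lacks part of the gene. *MET5*, which the study names as deleted, had 300 to 585, so its RNA was present in every library. *MET17*, listed here among the genes deleted in BY4741, had 0 to 9. Ribosomal RNA took 0.0982% to 0.150% of the counts in SD and 0.247% to 0.360% with vanillin. Replicate libraries were clearly distinct, as the chi-square of their counts exceeded its degrees of freedom at least 9.51-fold.

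On the per-length scale of FPKM, *OYE2* stood far above the other members in every group. Its mean over the 8 libraries was 1070 FPKM, rank 215 of 5782 genes, whereas YPL088W had 79.9 (rank 2047) and *OYE3* 11.5 (rank 5201). In BY4741 in SD the FPKM means were 673 ± 81.7 for *OYE2*, 48.9 ± 11.5 for YPL088W, 42.4 ± 1.81 for *AAD10*, 32.3 ± 5.28 for *AAD3*, 25.1 ± 4.62 for *AAD14*, 16.6 ± 1.10 for *AAD4*, 4.13 ± 1.09 for *OYE3* and 3.84 ± 0.665 for *AAD15* (standard deviation, n = 2 for each). YPL088W and *AAD10*, *AAD3* and *AAD14*, and *OYE3* and *AAD15* were neighbours in this order that did not differ beyond their spread.

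With vanillin the order below *OYE2* changed. In BY4741 the FPKM means were 1514 ± 85.1 for *OYE2* and 136 ± 26.3 for YPL088W, and *AAD10*, *AAD4*, *AAD3*, *AAD14* and *OYE3* lay close together between 42.7 ± 10.5 and 26.7 ± 6.58 (standard deviation, n = 2). In BY4741(yrr1Δ) with vanillin they were 1500 ± 61.6 for *OYE2*, 96.0 ± 15.2 for YPL088W and 51.3 ± 16.4 for *AAD3*. *OYE3* stayed at the bottom in that group, at 7.87 ± 0.318 FPKM beside 8.09 ± 6.72 for *AAD15* (standard deviation, n = 2).

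**Figure D2:**
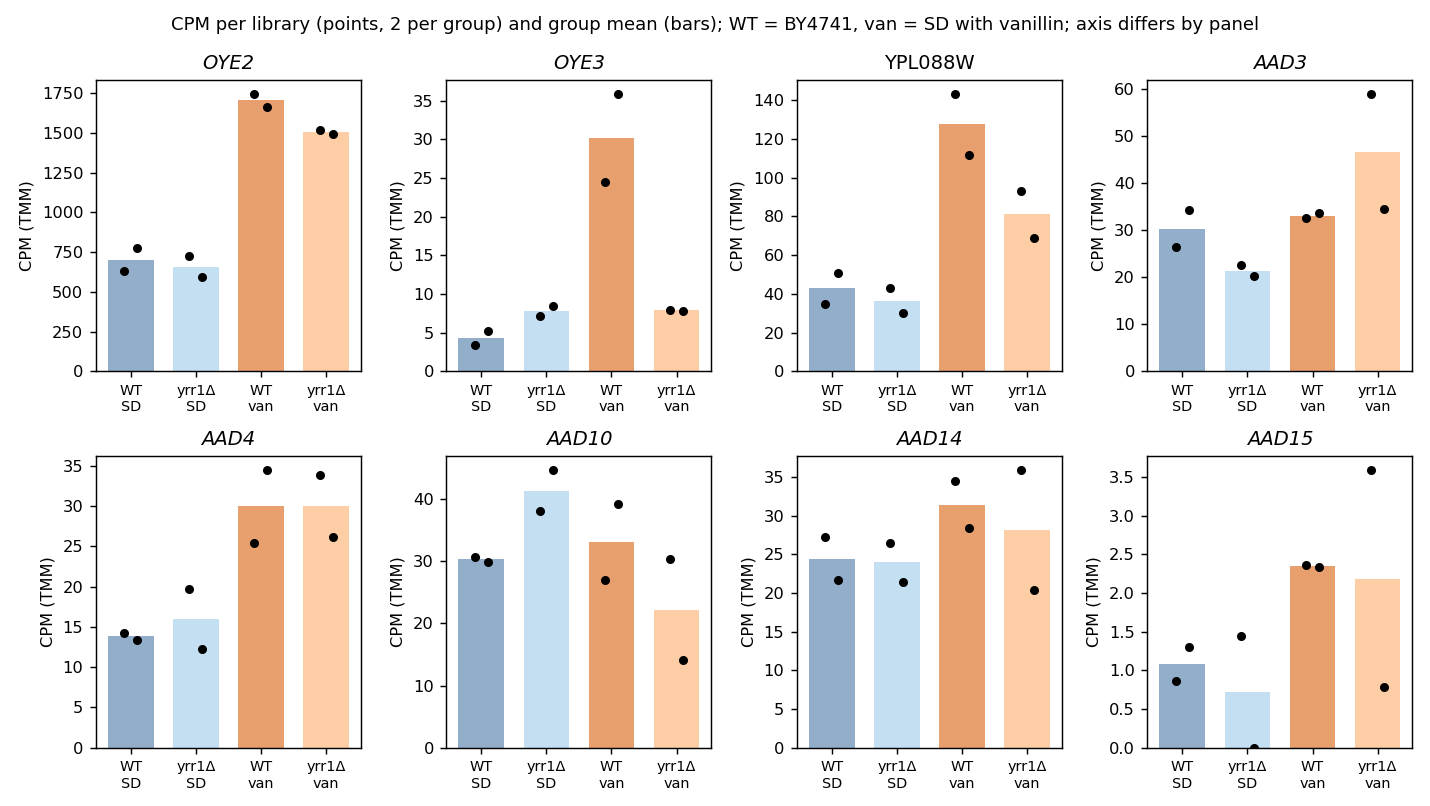
Normalised level (CPM, counts scaled to library size with TMM factors, linear axes from 0 that differ by panel) of the 8 members with values in each of the 8 libraries; points are libraries, bars are group means of 2 replicates. Both *OYE2* and YPL088W are higher in the vanillin libraries of either strain, while *OYE3* is at 24.5 and 35.9 in BY4741 with vanillin and at most 8.42 in the other 6 libraries.

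The first question was how the members responded when BY4741 met vanillin. *OYE2*, *OYE3* and YPL088W rose, by 2.42-, 6.91- and 2.98-fold, and the 4 *AAD* genes tested did not pass the test. Of the 7 members tested 3 were called, all higher, at an adjusted p (FDR) of at most 0.05 over all genes, where 3.14% of the 5506 genes tested were called, 2.32% higher and 0.817% lower. The median log2 fold change of the 7 members was 1.11 beside -0.02 over all genes. Both replicates with vanillin lay above both in SD for 5 members and below them for 0, and 27.5% and 26.6% of all genes did so.

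*OYE2*, the main old yellow enzyme gene of these cells, had 1463 and 1790 counts in BY4741 in SD against 3705 and 3566 with vanillin. In CPM, counts scaled to library size with TMM factors, these were 632 and 775 in SD and 1748 and 1663 with vanillin. Both vanillin libraries lay far above both SD libraries in this strain. These are levels of a whole culture, in which more RNA per cell and more cells with the RNA cannot be told apart. Its log2 fold change was 1.28 (standard error 0.18, FDR = 0.0060 in the quasi-likelihood test of edgeR, adjusted by Benjamini-Hochberg).

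*OYE3*, the second old yellow enzyme gene, had 8 and 12 counts in BY4741 in SD against 52 and 77 with vanillin. Its CPM was 3.45 and 5.20 in SD and 24.5 and 35.9 with vanillin, so the groups were well apart although the counts were few. The log2 fold change was 2.79 (standard error 0.36, FDR = 0.0045 from edgeR's test), rank 22 of 5506 genes from the highest. *OYE3* still gave only 1.38% and 2.11% of the old yellow enzyme counts in these 2 libraries, up from 0.544% and 0.666% in SD.

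YPL088W had 81 and 117 counts in BY4741 in SD against 304 and 240 with vanillin. These were 35.0 and 50.7 CPM in SD and 143 and 112 CPM with vanillin, without overlap. The log2 fold change was 1.57 (standard error 0.28, FDR = 0.019 from edgeR's test).

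*AAD4* came nearest to a call among the *AAD* genes of the parent strain, with 33 and 31 counts in SD against 54 and 74 with vanillin, or 14.2 and 13.4 CPM against 25.5 and 34.5. Its log2 fold change was 1.11 (standard error 0.31), and it did not pass (FDR = 0.096 from edgeR's test). *AAD3* had 60.79 and 79.05 counts in SD, and its vanillin counts of 68.57 and 72.28 lay between them. *AAD10* had 71 and 69 counts in SD against 57 and 84 with vanillin, on both sides of the SD libraries. *AAD14* had 63 and 50 counts in SD against 73.01 and 61 with vanillin, or 27.2 and 21.6 CPM against 34.4 and 28.4, so that scaled to library size the groups did not overlap. Their log2 fold changes ran from 0.13 to 0.36.

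These calls rested on 2 libraries a group. Leaving out replicate 1 of BY4741 in SD left 0 members called, and over all genes 41 were called in place of 173. Of the BY4741 libraries with vanillin, leaving out replicate 1 left 1 member and 39 genes, and leaving out replicate 2 left 0 members and 32 genes. With 1 library left out, the log2 fold change ran from 1.11 to 1.43 for *OYE2*, from 2.49 to 3.11 for *OYE3* and from 1.30 to 1.86 for YPL088W. In edgeR's test no member met the limits stated by the study (FDR at most 0.001 and fold change at least 2), which 0.182% of all genes met. In the DESeq2 Wald test *OYE2* (1.28, FDR = 5.6e-07), *OYE3* (2.81, FDR = 7.8e-05) and YPL088W (1.58, FDR = 0.00011) met them. DESeq2 called 277 genes at an FDR of at most 0.05, against 173 with edgeR. The share of all genes that met the study's limits in the DESeq2 test was not counted. The study lists *OYE2* and YPL088W among the genes responding to vanillin in both strains.

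The same question was asked of BY4741(yrr1Δ). *OYE2* and YPL088W rose with vanillin in the deletion strain too, by 2.29- and 2.24-fold, *AAD3* rose by 2.18-fold, and *OYE3* had a fold of 1.01. Of the 7 members tested 3 were called, all higher, where 11.2% of all genes were called, 4.58% higher and 6.63% lower. The median log2 fold change of the members was 0.92 beside 0.01 over all genes. The replicates did not overlap for 4 members that were higher and 1 that was lower with vanillin, as for 28.4% and 26.7% of all genes. In edgeR's test no member met the study's limits, which 0.272% of all genes met. In the DESeq2 Wald test only *OYE2* met them (1.19, FDR = 3.0e-06). DESeq2 called 641 genes here at an FDR of at most 0.05, and its share of all genes at the study's limits was not counted. Leaving out either SD replicate of this strain, or either vanillin replicate of BY4741, which shares the estimate of spread, left 1 member called, *OYE2*.

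*OYE2* had 1508 and 1403 counts in BY4741(yrr1Δ) in SD and 3814 in each library with vanillin. In CPM these were 726 and 591 in SD and 1521 and 1492 with vanillin. The equal counts came from distinct libraries, since 34 of 3806 genes with a mean of at least 100 counts had equal counts in that pair. The log2 fold change was 1.19 (standard error 0.18, FDR = 0.0057 from edgeR's test), close to that in BY4741, and it was called in 17 of 17 alternatives.

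*OYE3* had 15 and 20 counts in BY4741(yrr1Δ) in SD and 20 in each library with vanillin. Its CPM was 7.22 and 8.42 in SD and 7.98 and 7.83 with vanillin, all within the range of the SD libraries. The log2 fold change was 0.01, with a 95% interval from -0.82 to 0.84.

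YPL088W had 89 and 71 counts in BY4741(yrr1Δ) in SD against 234 and 176 with vanillin, or 42.8 and 29.9 CPM against 93.3 and 68.9. The log2 fold change was 1.16 (standard error 0.28, FDR = 0.031 from edgeR's test). It was called in 9 of 17 alternatives, and without a single library it ran from 0.92 to 1.42.

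*AAD3* had 46.73 and 48 counts in BY4741(yrr1Δ) in SD against 147.65 and 87.73 with vanillin. The CPM of the rounded counts was 22.6 and 20.2 in SD and 59.0 and 34.4 with vanillin, and the higher vanillin library stood far above the other. The log2 fold change was 1.13 (standard error 0.29, FDR = 0.040 from edgeR's test). Without replicate 1 of BY4741(yrr1Δ) with vanillin it was 0.69 and was not called (FDR = 0.189 from edgeR's test), and without replicate 2 it was 1.46. Both vanillin counts were not whole, and how reads that *AAD3* shares with its relatives were divided is not given in the sources used here.

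The other *AAD* genes did not pass in BY4741(yrr1Δ). *AAD4* had 41 and 29 counts in SD against 85 and 67 with vanillin, with a log2 fold change of 0.92, and it was called with library size alone as the scaling, at 1.04, and with limma on the FPKM values. *AAD10* had 79 and 106 counts in SD against 76 and 36 with vanillin, or 38.0 and 44.6 CPM against 30.3 and 14.1, with a log2 fold change of -0.90, and without replicate 1 of BY4741(yrr1Δ) with vanillin it was called, at -1.55. *AAD14* had 55 and 51 counts in SD against 90 and 52.05 with vanillin and overlapped between the groups. In that vanillin pair replicate 1 was the higher for *AAD3*, *AAD4*, *AAD10*, *AAD14* and *AAD15*.

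When the counts of close relatives were added before the fit, the 2 old yellow enzyme genes together had a log2 fold change of 1.27 in BY4741 and 1.18 in BY4741(yrr1Δ), with FDR = 0.0061 and 0.0057 from edgeR's test. These sums followed *OYE2*, which held nearly all of the counts. The 5 *AAD* genes with values together had 230 and 232 counts in BY4741 in SD, 225 and 234 in BY4741(yrr1Δ) in SD, 258 and 296 in BY4741 with vanillin, and 408 and 245 in BY4741(yrr1Δ) with vanillin. Their summed log2 fold change was 0.35 in BY4741 and 0.32 in BY4741(yrr1Δ), and neither passed (FDR = 0.474 and 0.442 from edgeR's test).

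**Figure D3:**
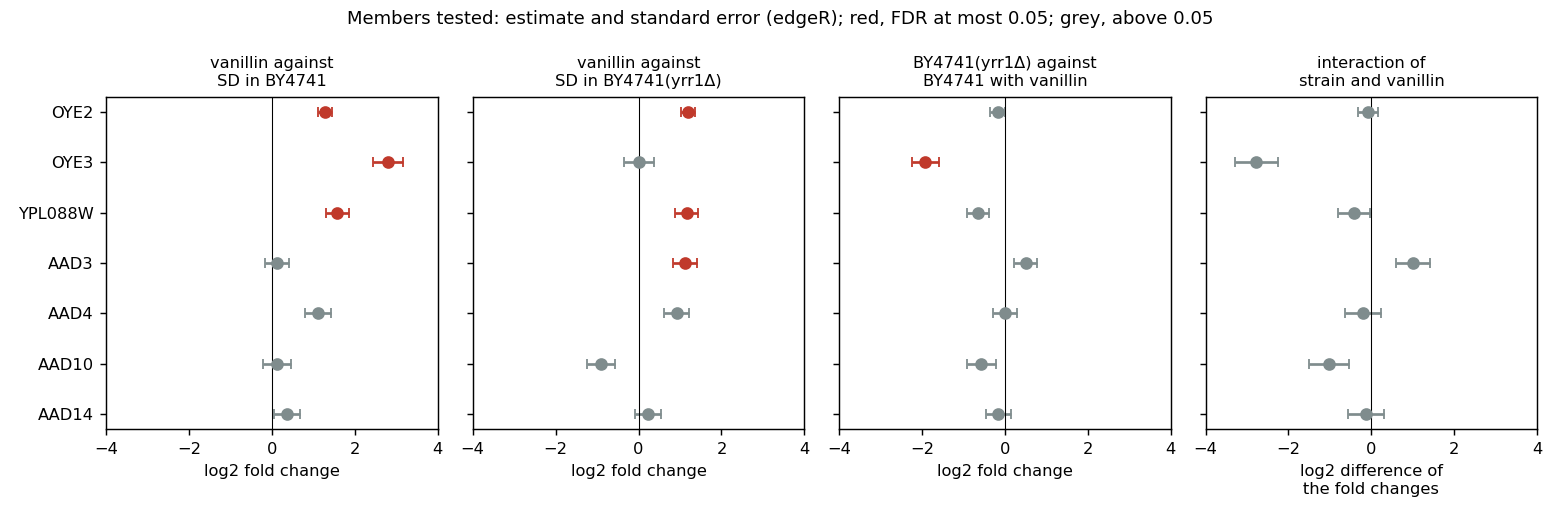
Log2 fold change (points) and standard error (bars) of the 7 members tested, from edgeR's fit of the 8 libraries, in 4 of the comparisons; red marks an FDR of at most 0.05 over 5506 genes. *OYE3* is at 2.79 in BY4741 and 0.01 in BY4741(yrr1Δ) with vanillin against SD, and it is the only member marked red between the strains with vanillin, at -1.93.

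In SD without vanillin, the comparison of the strains asked whether the loss of Yrr1p alone moved the members. None of the 7 was called by edgeR, 0 had an unadjusted p under 0.05, and DESeq2 called 0, where edgeR called 0.0182% of all genes, *YRR1* itself, and 1.78% had an unadjusted p under 0.05. The log2 differences of BY4741(yrr1Δ) against BY4741 ran from -0.50 for *AAD3* to 0.85 for *OYE3*. The replicates of *OYE3* and *AAD10* were higher in BY4741(yrr1Δ) without overlap and those of *AAD3* lower, where 12.9% of all genes were higher and 12.9% lower in this way. *OYE2* had a 95% interval from -0.49 to 0.30 and YPL088W from -0.89 to 0.41.

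With vanillin in the medium, *OYE3* was 3.81-fold lower in BY4741(yrr1Δ) than in BY4741, at 20 counts in each library against 52 and 77. Its log2 difference was -1.93 (standard error 0.33, FDR = 0.043 from edgeR's test), rank 32 of 5506 from the lowest. It was the only 1 of 7 members called, where 0.618% of all genes were called, 0.0363% higher and 0.581% lower. The call was near the threshold. It was kept in 6 of 16 alternatives, and FDR ran from 0.013 to 0.274 over them. With library size alone as the scaling the difference was -1.77, and without replicate 2 of BY4741 with vanillin it was -1.63. *OYE3* was not called in either, nor without any other 1 of the BY4741 libraries or the BY4741(yrr1Δ) libraries with vanillin.

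The other members with vanillin differed less between the strains. YPL088W had 143 and 112 CPM in BY4741 and 93.3 and 68.9 in BY4741(yrr1Δ), lower without overlap, with a log2 difference of -0.65 that did not pass. *OYE2* had 1748 and 1663 CPM in BY4741 and 1521 and 1492 in BY4741(yrr1Δ), with a log2 difference of -0.18 and a 95% interval from -0.57 to 0.22. The 4 *AAD* genes tested ran from -0.57 to 0.50. Replicates did not overlap for 1 member that was higher and 3 that were lower, as for 27.5% and 30.1% of all genes.

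Whether the response to vanillin itself differed between the strains was tested with the interaction of strain and vanillin. No member was called by edgeR, where 0.0908% of all genes were called. An unadjusted p under 0.05 was reached by 2 of 7 members and 20.5% of all genes. DESeq2 called 1 member, *OYE3*, where it called 217 genes over all genes and edgeR called 5. The response of *OYE3* was 2.78 lower on the log2 scale in BY4741(yrr1Δ), an interaction of -2.78 (standard error 0.52, FDR = 0.101 from edgeR's test), rank 23 of 5506 by p. With DESeq2 its adjusted p was 0.025, and over the alternatives it ran from 0.025 to 0.303. The interaction of *AAD10* was -1.02 (FDR = 0.271 from edgeR's test), and it ran from -1.68 to -0.57 with 1 library left out. *OYE2* had an interaction of -0.08 with a 95% interval from -0.64 to 0.48, and YPL088W one of -0.41 with an interval from -1.30 to 0.47. A difference of the responses of YPL088W between the strains was thus not shown.

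Lists of related genes were read beside the members. The list of 11 other Yrr1p targets had 6 called higher and 0 lower with vanillin in BY4741. Over all genes 2.32% were called higher and 0.817% lower. The list's median log2 fold change was 1.45 beside -0.02 over all genes. The called genes included *SNQ2*, an ABC transporter of multidrug export, at 3.13, and *SNG1*, at 3.49, with YLR346C and YLR046C at 5.58 and 3.03. In BY4741(yrr1Δ) 5 were called higher and 0 lower, among them *SNQ2* at 1.51, where 4.58% and 6.63% of all genes were. The median there was 1.05. YPL088W, at 1.57 and 1.16, was thus called higher in both strains as *SNQ2* was.

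Between the strains with vanillin 3 of the 11 were lower and 0 higher, *SNG1* at -3.67, YLL056C at -1.83 and *SNQ2* at -1.54, and the median was -0.47. Over all genes 0.581% were called lower and 0.0363% higher. The response of *SNG1* was 3.49 in BY4741 and -0.09 in BY4741(yrr1Δ), beside 2.79 and 0.01 for *OYE3*. For *SNG1* the interaction passed, at -3.58 (FDR = 0.037 from edgeR's test), and for *OYE3* it did not. In SD edgeR and DESeq2 called 0 of the 11 between the strains. Of the 11, 1 had an unadjusted p under 0.05, as did 1.78% of all genes.

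**Figure D4:**
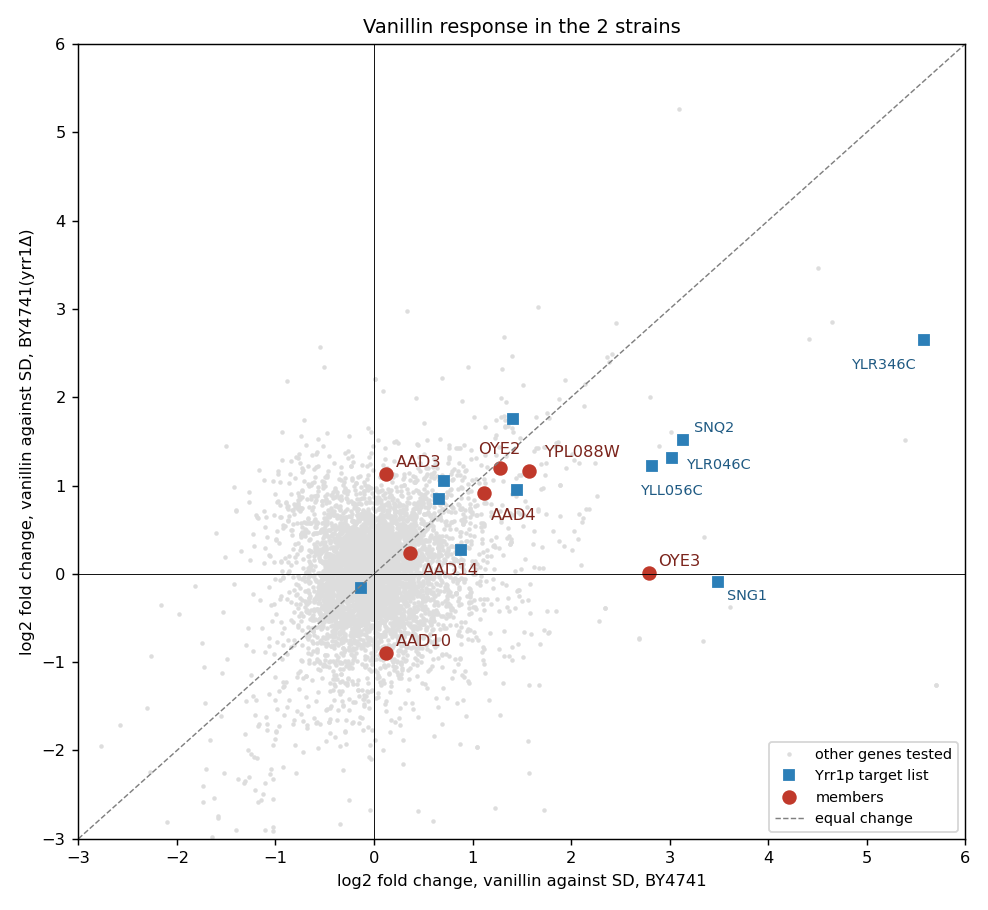
Log2 fold change with vanillin against SD in BY4741 (horizontal) and in BY4741(yrr1Δ) (vertical) for the members (red circles), the 11 other Yrr1p targets (blue squares) and all other genes tested (grey); the dashed line marks equal change, and 24 of 5506 genes lie outside the axes from -3 to 6. *OYE3* lies near *SNG1*, with 2.79 and 0.01, while *OYE2* and YPL088W lie near the dashed line.

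Of 13 other NADPH-dependent aldehyde and ketone reductase genes, 2 were higher and 0 lower with vanillin in BY4741, and 2 higher and 4 lower in BY4741(yrr1Δ). Over all genes 2.32% were called higher and 0.817% lower in BY4741, and 4.58% and 6.63% in BY4741(yrr1Δ). *ADH7*, an alcohol dehydrogenase that reduces aromatic and branched aldehydes, rose by 3.10 and 5.26 on the log2 scale. *GRE2*, a methylglyoxal reductase, rose by 1.38 in BY4741 and 0.69 in BY4741(yrr1Δ). The aldo-keto reductase genes *GRE3*, YJR096W and *ARA1* fell in BY4741(yrr1Δ), with log2 fold changes of -1.87, -1.79 and -1.19. The list's median was 0.02 and -0.34 in the strains. *ADH7* was the 1 gene of the 13 called between the strains with vanillin, at 2.63, where 0.618% of all genes were called.

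NADPH for these enzymes comes largely from the pentose phosphate pathway. Of 9 genes of NADPH supply, 2 were higher and 1 lower with vanillin in BY4741, and 1 higher and 1 lower in BY4741(yrr1Δ). Over all genes 2.32% were called higher and 0.817% lower in BY4741, and 4.58% and 6.63% in BY4741(yrr1Δ). The medians of the 9 were 0.59 and 0.16. *GND1*, the main 6-phosphogluconate dehydrogenase gene, rose by 1.27 and 1.43 on the log2 scale and *SOL3*, a 6-phosphogluconolactonase gene, by 1.05 in BY4741, while *GND2*, the minor isoform, fell by 1.65 and 2.98. None of the 9 was called between the strains by edgeR or DESeq2, and 2 with vanillin and 1 in SD had an unadjusted p under 0.05. Of all genes, 22.9% with vanillin and 1.78% in SD had such a p.

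The list of 16 Yap1p targets, of which 15 were tested, was read beside the TTACTAA letters of *OYE3*, and *FLR1* is in both this list and that of the Yrr1p targets. With vanillin edgeR and DESeq2 called 0 of the 15 in BY4741, where edgeR called 3.14% of all genes, and 7 of the 15 had an unadjusted p under 0.05, as did 18.3% of all genes. In BY4741(yrr1Δ) 0 were called higher and 5 lower, where 4.58% and 6.63% of all genes were. The 5 included the glutaredoxin gene *GRX2* at -1.39, the cytochrome c peroxidase gene *CCP1* at -1.27 and the thioredoxin gene *TRX2* at -1.16. The medians were 0.39 in BY4741 and -0.40 in BY4741(yrr1Δ), and -0.48 between the strains with vanillin. Between the strains with vanillin edgeR called 0 and DESeq2 3 of the 15, and 7 had an unadjusted p under 0.05. Over all genes edgeR called 34 and DESeq2 264 there, and 22.9% had such a p.

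The genes whose pattern over the 8 libraries was most like that of a called member were found among 5499 other genes by the root mean square difference of centred log2 CPM, given here as a description. For *OYE2* they were *PPN2*, *PHD1* and *HXK2*, with differences of 0.13 to 0.14 beside a median of 0.69 over all genes. For *OYE3* they were *GIT1*, *RDN37-1* and *RDN37-2*, with 0.32 to 0.34 beside a median of 1.01. *RDN37-1* and *RDN37-2* are copies of the ribosomal RNA precursor gene, RNA that poly(A) selection should remove. Their summed counts were 359 and 377 in BY4741 in SD, 729 and 441 in BY4741(yrr1Δ) in SD, 1299 and 2153 in BY4741 with vanillin, and 524 and 518 in BY4741(yrr1Δ) with vanillin, so that they too were highest in BY4741 with vanillin, and the part of this residue in the result for *OYE3* was not tested. For YPL088W they were *SNR30*, a small nucleolar RNA gene, *PPN2* and *RTS3*, with 0.14 to 0.19 beside 0.81. For *AAD3* they were *ALD5*, *ALR1* and *FOL1*, with 0.13 beside 0.51.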

How the data were processed

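The deposited files hold, for each gene and library, the authors' expected count, an estimate of the reads from the gene without normalization, and its FPKM, also made by the authors. The aligner and counting tool are not given in the sources used here. The submitters' processing notes name build R64. The authors' tables of fold changes between groups were not used.

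Expected counts were rounded and fitted in R 4.3.3 with edgeR 4.0.16 (filterByExpr, TMM, quasi-likelihood test, 1 model of 4 groups), with Benjamini-Hochberg adjustment over 5506 genes and calls at an FDR of at most 0.05. CPM values are TMM scaled. Library totals were 2195324 to 2453837, and with 2 replicates a group few counts limit the precision of *OYE3* and *AAD15*. The 95% intervals of log2 fold changes came from edgeR's standard errors, which include the estimated spread between replicates. The floor of 3 counts covers counting error only, and PCR copies, which are not independent, are outside it. Alternatives used DESeq2 1.42.0, limma 3.58.1 on log2(FPKM + 1) or log2(FPKM + 0.1), other scalings and filters, a replicate block, and each library left out.

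All members were described. A fold change with its test was printed for a member with an FDR of at most 0.05 or an absolute log2 fold change of at least 1 in that comparison, and up to 4 called genes per list were named. The members and lists were chosen with earlier results of these data known. Sequences and positions are from the RefSeq R64 genome, in which all 5782 identifiers matched. Protein sequences were not used here.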

Additional observations from a re-analysis of the deposited data

How the results depend on the processing

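Counts of called members are given out of 7, out of 6 where *OYE3* was filtered out, or out of 3 (*OYE*, *AAD* and YPL088W) with paralogous members summed. The counts at the study's limits are from edgeR's test. With vanillin in BY4741, where 3 were called, the count was 0 to 3 with 1 library left out and 0 at the study's limits. In BY4741(yrr1Δ), also 3, it was 1 with only the 4 samples compared, 1 with a replicate block, 1 to 3 with 1 library left out and 0 at the study's limits. Between the strains with vanillin, where 1 was called, it was 0 with library size alone, with at least 10 counts in every library (which removed *OYE3*), with limma on log2(FPKM + 1) and on log2(FPKM + 0.1), with a replicate block, with paralogous members summed and at the study's limits, and 0 to 1 with 1 library left out. For the interaction, where 0 were called, DESeq2 called 1. In SD no alternative called a member. The fold changes of the called members, of *AAD4* in BY4741, and of *OYE3* and *AAD10* in the interaction kept their sign in the alternatives run, and the signs of the other fold changes were not compared across them.

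Over all genes, the count with vanillin in BY4741 was 173, against 277 with DESeq2, 268 with only the 4 samples compared and 99 with the replicate block. In BY4741(yrr1Δ) it was 617, against 284 with only the 4 samples and 400 with the block. Between the strains with vanillin it was 34, against 264 with DESeq2, 317 with only the 4 samples and 12 with the block, and for the interaction 5, against 217 with DESeq2 and 0 with the block. Library size alone moved the median log2 fold change of all genes by -0.11 in BY4741, 0.11 in BY4741(yrr1Δ), 0.16 between the strains with vanillin and 0.22 for the interaction. Equal replicate numbers were not taken to mark paired samples. The differences between replicates 1 and 2 had correlations across genes from -0.58, between the strains in SD, to 0.18 between groups. These correlations cannot settle whether samples were paired, and whether libraries shared a batch was not tested. With replicate 1 of BY4741 in SD paired with replicate 2 of BY4741(yrr1Δ) in SD, a choice made after seeing the data, 75 genes and 0 members were called, against 0 and 0 with equal numbers paired.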

Other observations

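The genes beside the members were looked up after the values of the members had been seen, and they are given as values only. *AAD3* lies near the right end of chromosome III, with *RDS1* and then *ADH7* before it. In BY4741(yrr1Δ) with vanillin against SD the log2 fold changes were 5.26 for *ADH7*, 0.75 for *RDS1* and 1.13 for *AAD3*, and in BY4741 they were 3.10, 0.09 and 0.13. *RDS1*, a zinc cluster transcription factor gene, was not called in either (FDR = 0.099 and 0.886 from edgeR's test).

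Of the other *AAD* genes, *AAD4*, *AAD6*, *AAD10* and *AAD14* each lie beside a gene of the *THI5* family of thiamine precursor synthesis, *THI13*, *THI5*, *THI11* and *THI12*. *THI13* and *THI5* were not among the genes tested. *THI11*, beside *AAD10*, fell by 2.22 on the log2 scale with vanillin in BY4741(yrr1Δ) (FDR = 0.011 from edgeR's test), where *AAD10* was at -0.90 and was not called. *THI12*, beside *AAD14*, was at -1.50 (FDR = 0.136 from edgeR's test) and *AAD14* at 0.23. The *THI5* family genes are near-identical copies, so that the division of their counts is uncertain. *STB5*, the gene before *OYE2* and a transcription factor gene of NADPH supply, rose with vanillin in BY4741, by 0.93 on the log2 scale (FDR = 0.031, edgeR). In BY4741(yrr1Δ) it was at 0.46 and was not called. *DAP1*, on the other side of the region before the *OYE3* start codon, was at 0.96 in BY4741 and -0.16 in BY4741(yrr1Δ) with vanillin, and neither was called.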
